A study of Mus musculus with 2 samples.

Results

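The mitochondrial genome transcripts are the 37 genes whose annotated symbol starts with mt-, out of 55536 annotated genes in the deposited tables. They comprise 13 mRNAs, 2 rRNAs and 22 tRNAs, were chosen by name alone, and all 37 have a row in both libraries. The RNA came from hippocampus of B6CASTF1/J mice, hybrids from a cross of C57BL/6J with CAST/EiJ, at 10 days of age. There is 1 group, with no treatment and no engineered allele in the labels, and it holds 2 biological replicates that started from 300 ng of total RNA each. The labels name 3 males per library and do not spell out whether a library is a pool, and they name a spike-in set for stranded libraries with reduced ribosomal RNA. The values therefore describe levels, the agreement of the 2 libraries and the agreement of 2 ways of counting the same reads, and no condition is compared.

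The mammalian mitochondrial genome is a small circle of DNA that is copied into long RNAs from both strands, each spanning many genes. The tRNAs lie between most of the rRNAs and mRNAs, and cutting them out releases the neighbours, an arrangement known as tRNA punctuation. The 2 rRNAs build the mitochondrial ribosome, the 22 tRNAs decode on it, and the 13 mRNAs encode core subunits of the respiratory complexes I, III and IV and of the ATP synthase, complex V. Neurons depend heavily on this oxidative phosphorylation, and all other subunits come from nuclear genes. Fragments of mitochondrial DNA have also been copied into the nuclear genome during evolution, and reads from such copies and from the mitochondrial gene can look alike.

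A few tRNAs are shown because they set the boundaries discussed below, with the anticodon in capitals (sequences from GENCODE M21, mm10, plus strand). mt-Tv lies between the rRNA genes, mt-Tl1 between mt-Rnr2 and mt-Nd1, mt-Tf opens the transcribed stretch, and mt-Tl1 and mt-Ts2 are the longest and the shortest of the 22 at 75 and 59 bases.
mt-Tf (phenylalanine, chrM:1-68): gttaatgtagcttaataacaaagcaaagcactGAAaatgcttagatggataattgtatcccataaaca
mt-Tv (valine, chrM:1025-1093): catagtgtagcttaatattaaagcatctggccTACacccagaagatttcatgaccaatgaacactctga
mt-Tl1 (leucine, chrM:2676-2750): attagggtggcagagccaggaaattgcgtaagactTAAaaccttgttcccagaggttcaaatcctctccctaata
mt-Ts2 (serine, chrM:11613-11671): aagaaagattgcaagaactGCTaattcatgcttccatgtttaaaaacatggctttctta

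Of the 13 junctions between neighbouring rRNA and mRNA genes of the plus strand, 10 hold at least 1 tRNA and 3 hold none. Those 3 are mt-Atp8 with mt-Atp6, mt-Atp6 with mt-Co3 and mt-Nd4l with mt-Nd4, which overlap by 43, 1 and 7 bases. Here tRNAs of either strand are counted, and mt-Nd5 with mt-Cytb holds mt-Te alone, which lies on the minus strand. The first overlap is shown with the start codon of mt-Atp6 and the last codon of mt-Atp8 in capitals (mm10, chrM:7927-7969, plus strand).
Overlap: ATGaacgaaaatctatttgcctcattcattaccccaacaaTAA
Of the 13 mRNAs, 10 end in a complete stop codon in the annotation and 3 end 1 base into it, and the capitals mark those bases in the 15-base ends of 2 complete and the 3 incomplete genes (mm10, plus strand). In animals the missing bases are known to be supplied by the poly(A) tail.
mt-Nd1 (chrM:3693-3707): ccaccatacataTAG
mt-Co1 (chrM:6858-6872): gtaaaagtaaaaTAA
mt-Co3 (chrM:9376-9390): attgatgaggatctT
mt-Nd4 (chrM:11530-11544): caggcctgacaataT
mt-Cytb (chrM:15274-15288): taaaattatatccaT

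Only mt-Nd6 among the 13 mRNAs lies on the minus strand, with 8 of the 22 tRNAs, and its base composition differs from the other 12. It holds 28.1% G and 5.97% C, while the other 12 mRNAs hold 5.88 to 16.1% G and 22.1 to 29.97% C. The starts of mt-Nd6 and mt-Co1 show this, with every G in capitals: 12 in mt-Nd6 and 6 in mt-Co1.
mt-Nd6 (chrM:14011-14070, minus strand): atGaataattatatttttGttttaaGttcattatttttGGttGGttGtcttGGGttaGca
mt-Co1 (chrM:5328-5387, plus strand): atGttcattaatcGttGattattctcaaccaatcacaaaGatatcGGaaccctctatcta

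The gene tables hold 32035705 expected counts in replicate 1 and 29747193 in replicate 2. The spike-ins hold 0.358% and 0.359% of them. Both libraries are labelled male, and the sex-linked genes go against the label of 1 of them, replicate 2. Xist, the RNA of the inactive X chromosome, was at 25 counts in replicate 1, against 30841 in replicate 2. The Y-linked genes Ddx3y, Eif2s3y, Kdm5d and Uty had 764 to 2164 counts in replicate 1 and 0 to 2 in replicate 2. All 6 excitatory neuron markers of hippocampus were detected (TPM of 1 or more) in both libraries, their levels summing to 1641 and 1793 TPM. Interneuron, astrocyte, microglial and endothelial markers had summed levels of 348 and 339.7, 959 and 1028, 50.95 and 58.2, and 60.5 and 61.5 TPM. Markers that differed more were those of oligodendrocytes, with 143 TPM in replicate 1 and 256 in replicate 2, choroid plexus, with 12.1 and 348.8 and Ttr alone at 8.02 and 340.1, and red blood cells, with 668 and 382.9. Beside the sex-linked genes, the markers past both an adjusted p of 0.05 and a 2-fold ratio in the exact binomial test between the libraries were Ttr, Mobp, a myelin gene, at 7.60 TPM in replicate 1 and 21.2 in replicate 2, and Sostdc1 at 2.08 and 4.66. In bulk tissue fewer cells of a type cannot be told apart from less RNA per cell.

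Mitochondrial genes held 8.09% ± 0.148 of the counts on named genes (SD, n = 2). The rRNAs made up most of this, at 6.36% ± 0.0835, in libraries whose label names reduced ribosomal RNA. The mRNAs held 1.68% in replicate 1 and 1.78% in replicate 2, and the tRNAs held 0 counts. Counting error is small at this depth, as the exact 95% binomial intervals for all members run from 7.98 to 8.00% in replicate 1 and from 8.19 to 8.21% in replicate 2, and the libraries lie outside each other's interval. Such intervals cover counting error only, since no molecular identifiers are named in the labels. The rRNAs had 3.74 and 3.62 times the counts of the mRNAs in replicates 1 and 2. With the counts of matching nuclear rows, described below, added to the mRNAs it was 2.68 and 2.65 times.

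Both rRNAs were among the most abundant rows. mt-Rnr1, the small-subunit rRNA (chrM:70-1024), had 652514 and 645806 expected counts and a level of 35158 and 37459 TPM in replicates 1 and 2. The large-subunit rRNA mt-Rnr2 (chrM:1094-2675) had 1359623 and 1257580 counts and 42285 and 42104 TPM. Per length mt-Rnr2 was thus 1.16-fold above mt-Rnr1 on average, and it was the higher of the 2 in both libraries. The labels name reduced ribosomal RNA, and how far this changed the level of either rRNA was not tested. In the FASTQ-based table the levels were 51340 and 53600 TPM for mt-Rnr1 and 68220 and 67452 TPM for mt-Rnr2.

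The mRNAs ranked among the highest protein-coding genes of the tissue. By mean gene-table TPM, 11 of the 13 stood within the first 14 protein-coding genes, and mt-Nd6 and mt-Co2 stood at ranks 248 and 505. By FASTQ-based TPM 8 stood within the first 20, mt-Co2 at rank 42 and mt-Nd6 at 255. There mt-Nd3 and mt-Nd4l were at ranks 12297 and 15327, and mt-Atp8 was listed at 0. mt-Co1, the catalytic subunit of cytochrome c oxidase, led all protein-coding genes by both tables, in the gene table with 5060.4 TPM in replicate 1 and 5139 TPM in replicate 2. Behind it came mt-Atp8 at 3948 ± 28.99 TPM, mt-Cytb at 3631 ± 48.05, mt-Nd1 at 3086 ± 12.1, mt-Atp6 at 2706 ± 194, mt-Nd4 at 2543 ± 184 and mt-Nd4l at 2239 ± 40.7 (SD, n = 2). The lower ones were mt-Co3 at 1921 ± 334 TPM, mt-Nd2 at 1739.8 ± 84.7, mt-Nd3 at 1691 ± 66.9, mt-Nd5 at 1388 ± 50.95, mt-Nd6 at 243 ± 20.95 and mt-Co2 at 152 ± 51.5. In this order 3 of the 12 neighbouring pairs overlapped between libraries: mt-Atp6 with mt-Nd4, mt-Co3 with mt-Nd2, and mt-Nd2 with mt-Nd3. The place of mt-Atp8 depends on its effective length, 105 bases for a gene of 204. By counts per kilobase of annotated length mt-Atp6 stood above it, with a log2 difference of 0.12 in replicate 1 and 0.25 in replicate 2.

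**Figure D1:**
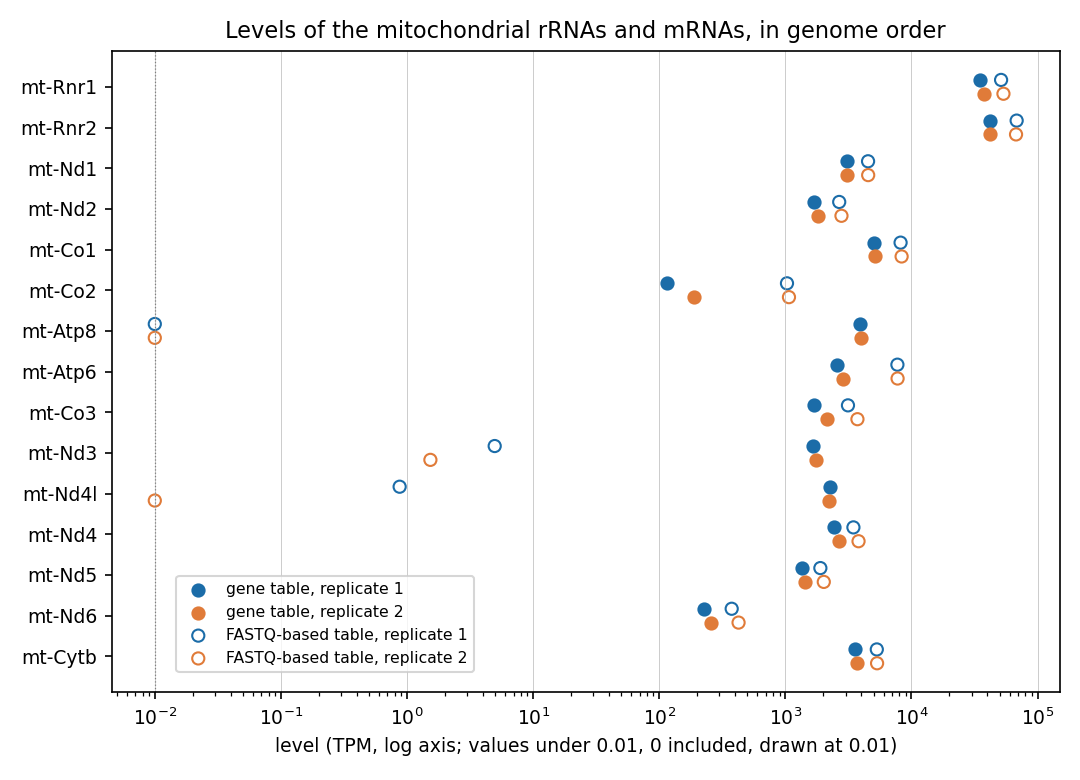
Level in TPM (log axis) of the 2 rRNAs and 13 mRNAs, from mt-Rnr1 at the top in genome order, for each library by the gene table (filled) and the FASTQ-based table (open). In the gene table the replicates lie furthest apart for mt-Co2, at 116 and 188.5 TPM, and in the FASTQ-based table alone mt-Atp8, mt-Nd3 and mt-Nd4l are at or near 0, with mt-Nd3 at 4.96 and 1.53 TPM.

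The 7 mRNAs of complex I, the NADH dehydrogenase, held 42.7% and 42.9% of the mitochondrial mRNA counts in replicates 1 and 2, with a median of 1680 and 1800 TPM. mt-Nd1, which lies beside the quinone site of the complex, had 57257 and 53482 counts. mt-Nd4 and mt-Nd5 encode large proton-pumping subunits and had 66914 and 68866 counts and 50563 and 49472 counts. mt-Nd2, related to them in sequence, had 34201 and 34035 counts. The small membrane subunits mt-Nd3 and mt-Nd4l had 8873 and 8717 counts and 9733 and 8812 counts. Every complex I mRNA of the plus strand lay between 1352 and 3095 TPM in both libraries, and mt-Nd6 lay apart from them with 2076 and 2179 counts, 228.0 and 257.6 TPM. mt-Nd5 and mt-Nd6 face each other on opposite strands and share 14 bases at their ends. The rest of mt-Nd6 lies in the 579 bases between mt-Nd5 and mt-Cytb, which a long plus-strand RNA can also span. Along all of mt-Nd6, reads of the 2 strands cannot be told apart without strand (its use was not given in the sources used here).

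Complex III, which passes electrons to cytochrome c, has 1 mitochondrial subunit. Its mRNA mt-Cytb had 81502 and 77138 counts, a level of 3597 and 3665 TPM and 15.2% and 14.7% of the mitochondrial mRNA counts. Complex IV, cytochrome c oxidase, has 3, which by the mitochondrial rows alone spread more widely than those of the other complexes. mt-Co1 had 158652 and 149674 counts, mt-Co3, a structural subunit, had 25025 and 29761, and mt-Co2, which takes electrons from cytochrome c, had 1468 and 2221. For complex V, mt-Atp6, which forms part of the proton channel, had 32413 and 33332 counts and mt-Atp8, a small membrane subunit, had 8942 and 8393. The values of mt-Co2, mt-Co3 and mt-Atp6 depend on how reads were divided with nuclear rows, which is described next.

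In all, 16 annotated nuclear rows match a mitochondrial gene at 90% identity or more over at least 50% of their length. Of these, 7 lie side by side on chromosome 1 of mm10, from 24611535 to 24616197 on the minus strand, as unprocessed pseudogenes of mt-Co1, mt-Co2, mt-Atp6, mt-Co3, mt-Nd3, mt-Nd4l and mt-Nd4. These 7 held 212836 counts in replicate 1 and 191695 in replicate 2, and the 9 elsewhere held 72.6 and 60.8. The copies of mt-Co2, mt-Atp6 and mt-Co3 are identical to the gene over their whole length of 681, 678 and 783 bases and stop short only at its last bases. The last 30 bases of each gene are shown beside the end of its nuclear row, with the bases that only the mitochondrial row has in capitals.
mt-Co2 (chrM:7667-7696, plus strand): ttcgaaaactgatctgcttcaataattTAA
Gm28661 (chr1:24614885-24614911, minus strand): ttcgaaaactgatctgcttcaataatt
mt-Atp6 (chrM:8578-8607, plus strand): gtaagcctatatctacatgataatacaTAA
Gm10925 (chr1:24613974-24614000, minus strand): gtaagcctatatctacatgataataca
mt-Co3 (chrM:9361-9390, plus strand): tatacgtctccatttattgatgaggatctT
Gm28437 (chr1:24613189-24613217, minus strand): tatacgtctccatttattgatgaggatct

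Of the 585 windows of 100 bases in mt-Co2, 582 also occur in a nuclear transcript. The same holds for 579 of 582 windows in mt-Atp6, 684 of 685 in mt-Co3, 243 of 249 in mt-Nd3 and 195 of 198 in mt-Nd4l. A 100-base read inside these 5 genes is thus seldom specific to the gene. The share is lower in mt-Nd4, with 777 of 1279 windows, in mt-Co1, with 446 of 1446, and in mt-Nd2, with 30 of 939. The other 5 mRNAs and both rRNAs have 0 such windows.

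The counts were divided between gene and copy in different ways. Gm28661 had 83800 and 77674 counts, so that mt-Co2 kept 1.72% of the joint counts in replicate 1 and 2.78% in replicate 2. Gm10925 had 64376 and 58766, and mt-Atp6 kept 33.5% and 36.2%. Gm28437 had 52242 and 44191, and mt-Co3 kept 32.4% and 40.2%. Most joint counts of these 3 genes thus stood on the nuclear row in both libraries, while mt-Co1 kept 92.7% and 93.1%, with 12405 and 11064 counts on its shorter copy Gm29216. mt-Nd3 and mt-Nd4, although almost wholly and largely identical to their copies, kept 100% in both libraries, with 0 counts on Gm28438 and Gm28439. mt-Nd4l kept 99.9% and 100%.

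The deposited posterior means, a second estimate in the same table, gave mt-Co2 12624 ± 2235 counts in replicate 1 and 14887 ± 2999 in replicate 2, where ± is the deposited posterior SD. For mt-Cytb, with no identical nuclear window, that SD was 0 in both libraries and the posterior mean equalled the expected count. In the FASTQ-based table mt-Co2 kept 9.52% and 9.59% of its joint counts, mt-Atp6 77.1% and 74.6%, and mt-Co3 41.2% and 47.4%. The split between gene and copy is therefore uncertain for these genes, and the origin of the reads was not tested. With the nuclear rows added the joint counts were 85317 and 79931 for mt-Co2, 96789 and 92098 for mt-Atp6, and 77267 and 73952 for mt-Co3.

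**Figure D2:**
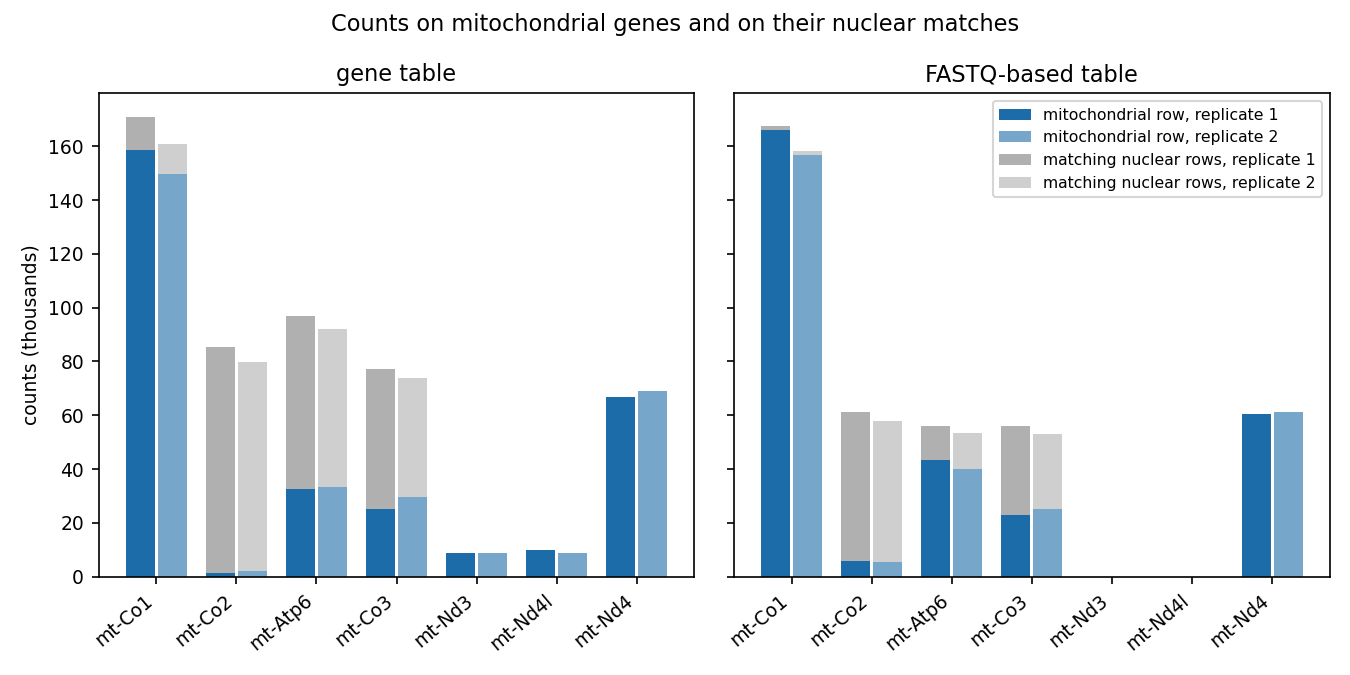
Counts (axis in units of 1000) on the 7 mitochondrial genes with a copy on chromosome 1 (blue) and on their matching nuclear rows (grey), stacked, for replicate 1 (dark) and replicate 2 (pale) by the gene table (left) and the FASTQ-based table (right). Nearly all joint counts of mt-Co2 stand on the nuclear row in the gene table, while mt-Nd3, mt-Nd4l and mt-Nd4 keep 99.9 to 100% there.

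With the nuclear rows added the order of the mRNAs changed at the top. mt-Atp6 led with 7764 ± 132 TPM, followed by mt-Co2 at 6755 ± 40.8, mt-Co1 at 5488 ± 44.8 and mt-Co3 at 5281 ± 112 (SD, n = 2). mt-Nd5 and mt-Nd6 were then the lowest. The level of the highest of the 12 plus-strand mRNAs over the lowest was 43.7-fold in replicate 1 and 27.3-fold in replicate 2 for the mitochondrial rows alone, and 5.67-fold and 5.52-fold with the nuclear rows added. Complex IV then held 44.5% and 43.8% of the mRNA counts instead of 34.4% and 34.5%, and complex V held 14.1% and 14% instead of 7.69% and 7.93%.

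No count fell on any of the 22 tRNA genes, in either library or table. The 22 tRNAs are 59 to 75 bases long, and the gene table lists an effective length of 0 for them. The same was true of annotated genes of this size in general, these 22 included. All 2383 genes with 1 transcript under 100 bases had an effective length of 0 in the gene table and 0 counts in both tables. The tables hence give no level and no upper limit for the tRNAs, including mt-Tl1 and mt-Ts2 shown above.

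The deposited tables quantify each library along 2 routes, by alignments (gene table) or directly off the FASTQ file, and 5 of the 15 rRNAs and mRNAs differed at least 2-fold between them in the same direction in both libraries. The background over 18491 genes compared was 18.9%, with 3.35% higher and 15.5% lower in the gene table. Of the 15, 3 were higher in the gene table, namely mt-Atp8, mt-Nd3 and mt-Nd4l, and 2 were lower, namely mt-Co2 and mt-Atp6. mt-Atp8 had 8942 and 8393 counts in the gene table and was listed at 0 in the FASTQ-based table in both libraries. mt-Nd3 had 8873 and 8717 counts in the gene table and 7 and 2 in the other. mt-Nd4l had 9733 and 8812 counts in the gene table and 1 and 2.18e-07 in the other. These are the 3 shortest mRNAs, of 204, 348 and 297 bases, and their values by the 2 tables do not overlap.

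The same was seen in other genes of that size. Of 49 other genes with 1 transcript of 200 to 350 bases and a mean gene-table count of 100 or more, 48 had a FASTQ-based count under 1% of the gene-table count in both libraries. The median ratio of counts was 0.168 and 0.155 over 108 genes of 350 to 600 bases, and mt-Nd6, the 1 member in that class, stood at 0.553 and 0.547. Over 131 genes of 600 to 1000 bases it was 0.686 and 0.685, and the 5 members of that size had a median of 0.920 and 0.846. The 5 include mt-Co2, mt-Atp6 and mt-Co3, whose counts depend on the split with nuclear rows. With those rows added their FASTQ-based counts in replicate 1 were 61058, 56088 and 55842. Gene-table counts were then 85317, 96789 and 77267, and were the higher ones in replicate 2 too. mt-Rnr1 and mt-Nd1, without such rows, stood at 0.806 and 0.812 in replicate 1. Over 324 genes of 1000 to 2000 bases the median ratio was 0.957 and 0.956, and the 6 members of that size had a median of 0.924 and 0.918. The gene table takes 99 bases off a long transcript to give its effective length and the FASTQ-based table takes off 352 and 356 in replicates 1 and 2. The part of this in the difference was not tested.

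mt-Co2 had 116 and 188.5 TPM in the gene table and 1030 and 1068 TPM in the FASTQ-based table, a log2 ratio of -3.15 and -2.50 (pseudocount 0.1). mt-Atp6 had 2569 and 2844 TPM in the gene table and 7733 and 7757 in the other, a log2 ratio of -1.59 and -1.45. All genes together had a median of -0.63 in each library, so ratios near that value are the rule for these tables. With the nuclear rows added mt-Co2 stood at -0.69 and -0.72 and mt-Atp6 at -0.38 and -0.40, and neither was 2-fold apart any more. mt-Atp6 was also under 2-fold once ratios were centred on the median or taken on counts scaled to library size, and mt-Co2 by posterior mean TPM. The other 10 rRNAs and mRNAs lay between -0.90 and -0.49.

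**Figure D3:**
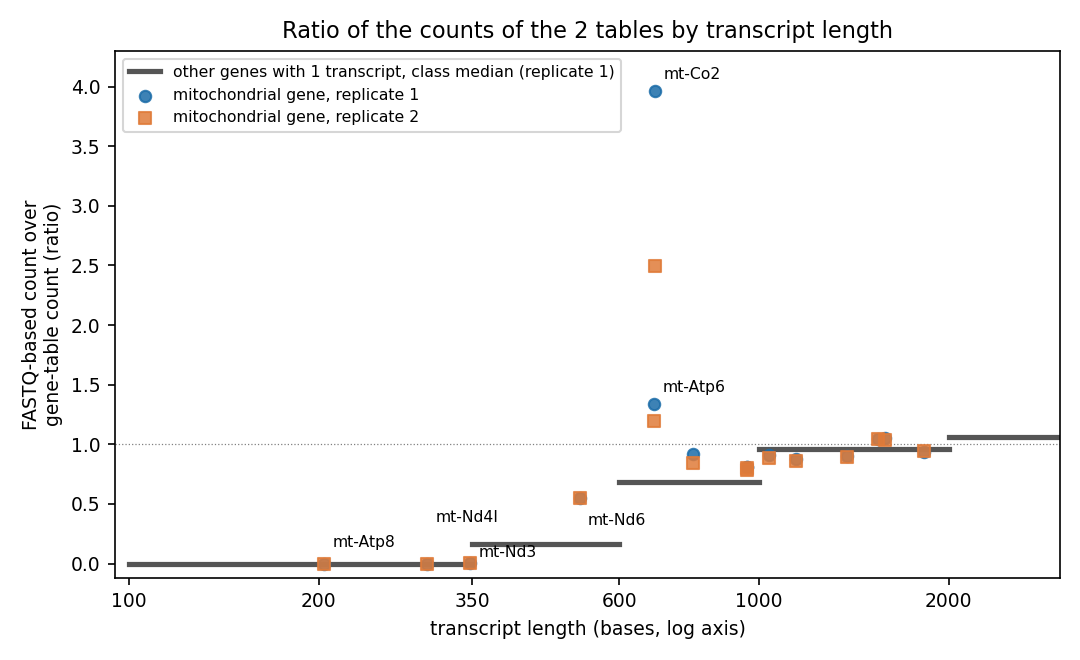
Ratio of the FASTQ-based count to the gene-table count against transcript length in bases (log axis) for the 15 mitochondrial rRNAs and mRNAs in each library, with the median of other genes with 1 transcript per length class as lines (replicate 1). mt-Atp8, mt-Nd3 and mt-Nd4l lie at 0 with the other short genes, and mt-Co2 lies highest at 3.96 in replicate 1 and 2.49 in replicate 2.

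Neighbouring genes did not all have equal levels. Of the 13 plus-strand pairs, 5 differed at least 2-fold per length in both libraries, and so did mt-Nd6 over mt-Cytb, a pair on opposite strands, which makes 6 of 14 in all. mt-Nd1 stood 13.7-fold below mt-Rnr2, from which mt-Tl1 alone separates it, a log2 difference in level of -3.77 ± 0.01 (SD, n = 2). That fold is for libraries labelled as having reduced ribosomal RNA, whose effect on mt-Rnr2 was not tested. mt-Co1 stood 2.93-fold above mt-Nd2, and mt-Cytb 2.62-fold above mt-Nd5. mt-Nd6, on the opposite strand, stood 14.98-fold below mt-Cytb, with a log2 difference of -3.98 in replicate 1 and -3.83 in replicate 2. The limit on strand given above applies to the counts of mt-Nd6 here too. These 4 pairs kept their direction and their size past 2-fold by the FASTQ-based table and with the nuclear rows added.

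The remaining 2 were the pairs around mt-Co2 and depended on the nuclear rows. mt-Co2 stood 34.5-fold below mt-Co1 and mt-Atp8 26.7-fold above mt-Co2 by the mitochondrial rows alone. By posterior mean TPM of the same rows these were 4.55-fold and 3.52-fold, and by FASTQ-based TPM mt-Co2 stood 7.89-fold below mt-Co1. With the nuclear rows added the log2 differences were 0.30 ± 0.003 and -0.77 ± 0.002, in the opposite direction and under 2-fold. mt-Nd3 over mt-Co3, by contrast, had a log2 difference of -1.64 ± 0.03 with the nuclear rows added and -0.17 ± 0.19 by the mitochondrial rows alone.

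At the 3 junctions with no tRNA on either strand the neighbours lay within 2-fold in the gene table. mt-Atp6 over mt-Atp8 had a log2 difference in level of -0.55 ± 0.09, mt-Co3 over mt-Atp6 -0.50 ± 0.15, and mt-Nd4 over mt-Nd4l 0.18 ± 0.13 (SD, n = 2). With the nuclear rows added the first became 0.98 ± 0.01. By FASTQ-based TPM mt-Co3 over mt-Atp6 was at -1.18 ± 0.17, past 2-fold in both libraries, and the other 2 junctions hold a gene listed at or near 0 there. In the gene table mt-Cytb over mt-Nd5, with no plus-strand tRNA and mt-Te of the minus strand between them, was past 2-fold at 1.39 ± 0.03. Pairs with plus-strand tRNAs between them also lay within 2-fold in places. mt-Rnr2 over mt-Rnr1, with mt-Tv between them, was at 0.22 ± 0.07, and mt-Nd5 over mt-Nd4 at -0.87 ± 0.05. mt-Nd2 over mt-Nd1 was at -0.83 ± 0.06 and mt-Nd4l over mt-Nd3 at 0.41 ± 0.08. Over the 12 plus-strand mRNAs the position along the genome and the level had a Spearman correlation of -0.15 in both libraries, and of -0.34 in both with the nuclear rows added, given as a description over 12 genes of the same 2 libraries.

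**Figure D4:**
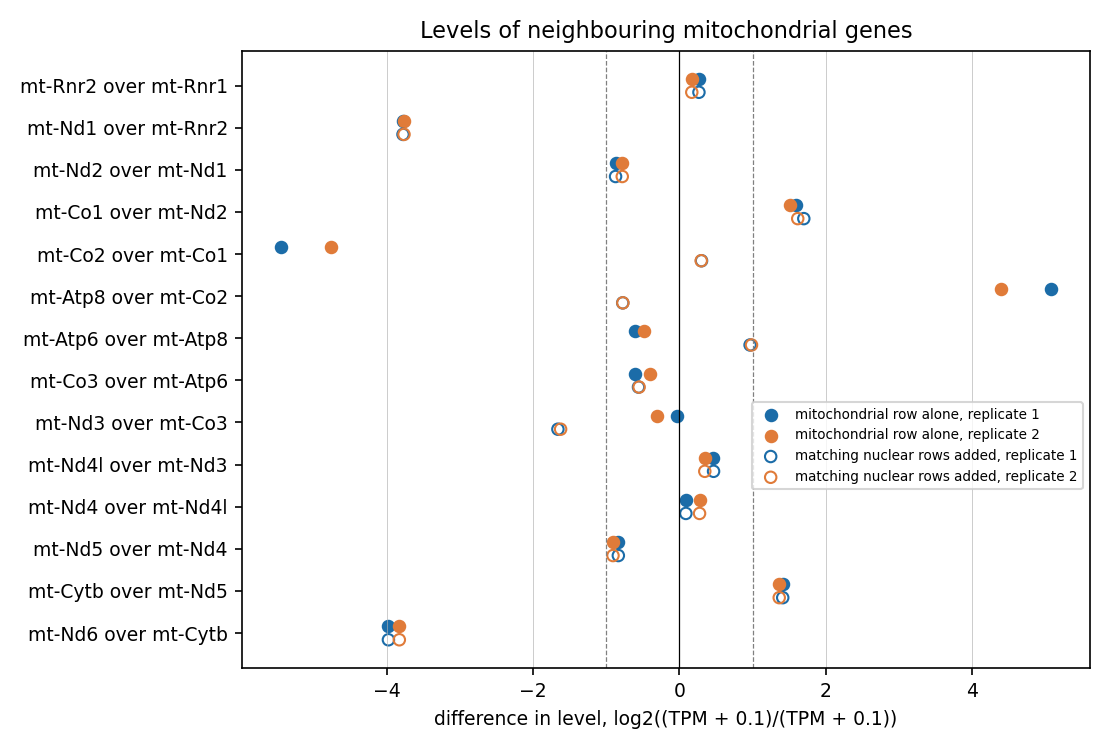
Log2 difference in level (TPM with a pseudocount of 0.1) of each gene over its upstream neighbour, 13 plus-strand pairs in genome order and mt-Nd6 over mt-Cytb, for the mitochondrial rows alone (filled) and with matching nuclear rows added (open) in each library. Dashed lines mark 2-fold, and the pairs around mt-Co2 stand at 0.30 and -0.77 with nuclear rows added, against -5.11 and 4.74 without them.

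Between the libraries no mitochondrial gene was called. The 22 tRNAs did not reach the minimum mean count of 100. Of the 15 rRNAs and mRNAs, 0 passed both an adjusted p under 0.05 and a 2-fold ratio, against a background of 0.303% (exact two-sided binomial test, adjusted by Benjamini-Hochberg over 12881 genes). By the adjusted p alone 11 of the 15 passed, against a background of 11.8%. Those that passed were all lower in replicate 1 than in replicate 2. Both libraries are labelled male, and the sex-linked genes of replicate 2 go against its label, as given above. At an unadjusted p under 0.05 the count was also 11, and FASTQ-based counts gave 8 of 12 tested. The ratios were small: 13 of the 15 lay within 0.2 on the log2 scale. The test holds counting error alone, so small ratios pass it more readily at high counts. The members tested held 1468 counts or more in replicate 1, while the background starts at a mean count of 100. Shares that pass are thus not like for like between sets of unlike counts, which holds for the gene lists below too. The median log2 ratio of replicate 1 over replicate 2 was -0.09 over the 15, and -0.0003 over all genes tested, whose median size was 0.07.

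The exceptions were mt-Co2, with a log2 ratio of -0.71 (adjusted p = 4.39e-47, exact binomial test), and mt-Co3, with -0.36 (adjusted p = 6.33e-187, same exact test). With the nuclear rows added they stood at -0.02 (adjusted p = 0.0631, exact) and -0.05 (adjusted p = 1.52e-09, exact), and all 15 members were then within 0.2. mt-Nd6 had -0.18 (adjusted p = 0.00075, exact) and mt-Nd4 -0.15 (adjusted p = 1.08e-83, exact), and neither value moved with the nuclear rows. mt-Rnr2 at -0.0003, mt-Nd1 at -0.01, mt-Atp8 at -0.02 and mt-Nd4l at 0.03 did not pass, though mt-Rnr2 turned to between 0.006 and 0.01 and passed under the 3 other scalings (adjusted p = 0.0184 to 1.18e-06, exact) and by FASTQ-based counts. The test sets 1 library against 1 and so carries no error between replicates. It also leaves out the error of dividing reads between a gene and its nuclear row. For mt-Co2 the deposited posterior SD, 2235 and 2999 counts, was above its expected counts of 1468 and 2221. By FASTQ-based counts the log2 ratio was -0.05 for mt-Co2 and -0.25 for mt-Co3, and by posterior mean counts -0.35 and -0.19. By the same adjusted p, 3 of 3 oligodendrocyte and 2 of 3 choroid plexus markers tested were lower in replicate 1 and 3 of 3 red cell markers higher. Also lower in replicate 1 were 4 of 6 excitatory neuron, 2 of 3 astrocyte, 2 of 3 microglial and 1 of 3 endothelial markers, and 0 of 3 interneuron markers passed. The median log2 ratio was -0.10 over the excitatory neuron markers, -0.10 over those of astrocytes and -0.22 over those of microglia. The summed levels are given above, and the part of these markers in the mitochondrial ratios was not tested. Relative to the spike-ins, the mitochondrial mRNAs had 4.69 times the spike-in counts in replicate 1 and 4.92 times in replicate 2, and the rRNAs 17.5 and 17.8 times.

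**Figure D5:**
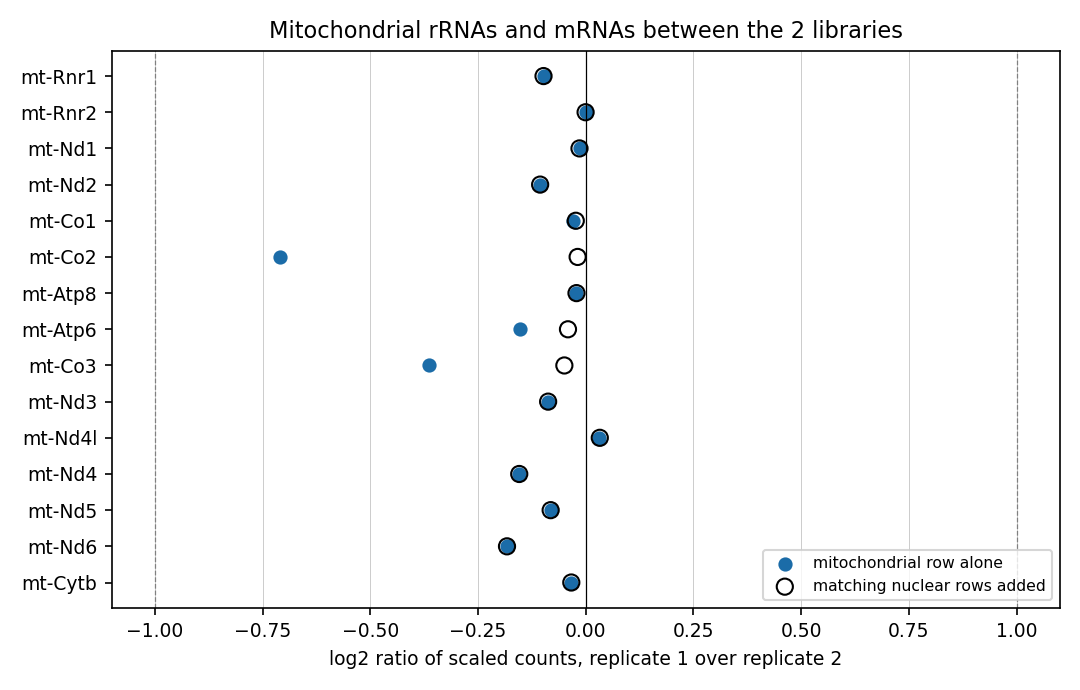
Log2 ratio of scaled counts, replicate 1 over replicate 2, for the 2 rRNAs and 13 mRNAs by the mitochondrial row alone (filled) and with matching nuclear rows added (open); dashed lines mark 2-fold. No gene reaches 2-fold, and mt-Co2 and mt-Co3 stand at -0.02 and -0.05 with nuclear rows added, against -0.71 and -0.36 without them.

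In each complex the median level of the mitochondrial mRNAs stood above that of the nuclear genes for partner subunits. The 7 complex I mRNAs had a median level 18.1- and 19.0-fold that of 7 nuclear core subunits, which had medians of 92.7 and 94.7 TPM in replicates 1 and 2. mt-Cytb was 32.1- and 33.4-fold above the median of 4 nuclear subunits of complex III. The complex IV median was 5.55- and 6.95-fold above that of 5 nuclear subunits, and 17.97- and 17.8-fold with the matching nuclear rows added. mt-Co2 itself, at 116 and 188.5 TPM by its own row, stood below the nuclear median of complex IV, 303.6 and 310.3 TPM. For complex V it was 15.3- and 16.2-fold, and 27.4- and 28.05-fold with those rows. The highest nuclear partners were Atp5b at 735.6 ± 5.93 TPM, Cox4i1 at 424.9 ± 11.4, Atp5a1 at 357.5 ± 0.368 and Cox5b at 352 ± 3.91, and Ndufs8 was lowest at 60.7 ± 0.594 (SD, n = 2). None of the 21 nuclear partners passed the adjusted p between the libraries, beside 11.8% of all genes tested.

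The nuclear genes that make and handle these RNAs were expressed at much lower levels. Their counts were mostly lower than those of the members, such as 808 and 701 for Polrmt and 2917 and 2662 for Dhx30. Small ratios in them thus pass the test between the libraries less readily. All 17 transcription and replication genes were detected in each library, and their median was 8.44 TPM in replicate 1 and 8.15 in replicate 2. Polrmt, the mitochondrial RNA polymerase, stood at 18.4 ± 2.37 TPM and Tfam, which packs the DNA and opens its promoters, at 17.6 ± 0.863. Polg, the catalytic subunit of the DNA polymerase, led at 35.3 ± 2.96, level with Mrpl12 at 35.1 ± 1.24, a ribosomal protein, and the nuclease gene Mgme1 was lowest at 1.45 ± 0.0354. None of the 14 tested passed the adjusted p, beside the same 11.8%.

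Of RNA processing, stability and decay genes, 25 of 25 were detected, with a median of 12.03 and 13.7 TPM. Dhx30, an RNA helicase, led at 62.1 ± 3.95 TPM, before the exoribonuclease gene Rexo2 at 45.0 ± 2.07, the RNA granule protein gene Grsf1 at 43.7 ± 4.15 and Slirp at 40.4 ± 0.0495, whose product stabilises mRNAs together with Lrpprc. Fastkd5, needed in human cells for cuts not flanked by tRNAs, was lowest at 3.59 ± 0.0849. Modification and assembly genes for rRNAs and tRNAs had 20 of 20 detected and a median of 8.18 and 7.22 TPM. Nsun2, a cytosine methyltransferase, led at 35.0 ± 2.30 TPM, followed by the pseudouridine synthase gene Trub2 at 22.2 ± 1.10, the tRNA thiolation enzyme gene Trmu at 16.6 ± 0.976 and Qtrt1, a queuosine enzyme, at 14.8 ± 0.792. Tfb1m, the rRNA dimethyltransferase of the small subunit, was lowest at 2.44 ± 0.290. None of the 25 and 19 genes tested in these lists passed the adjusted p, beside 11.8% of all genes tested.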

How the data were processed

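Per the deposited descriptions, the authors derived gene tables from transcriptome alignments to mm10 with GENCODE M21, and a transcript table straight off the FASTQ file, with tools not given in the sources used here. Both routes use the same reads. The authors' deposited expected counts (gene table) and estimated counts (FASTQ-based) are not normalized, and the deposited TPM values are scaled to 1 total in each library over all rows. The deposited gene table also gives posterior mean counts with an SD, and TPM. FASTQ-based rows were summed per gene. The 26248 rows named by a number (2.81e-05% and 2.00e-05% of counts) and the spike-ins were left out of library sizes.

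Expected counts were rounded before tests. Effective library sizes came from TMM (edgeR 4.0.16, R 4.3.3). Replicates 1 and 2 were compared gene by gene, from a mean count of 100 upward, with exact two-sided binomial tests, Benjamini-Hochberg adjusted (prior count 0.5 in log2 ratios), checked on simulated data. Routes were compared for genes whose mean TPM reached 1 by either route (pseudocount 0.1). Nuclear matches came from BLAST 2.17.0. Alternatives used DESeq2 1.42.0 size factors. Python 3.11.15 with numpy 2.4.6, pandas 2.3.3, scipy 1.17.1 and matplotlib 3.10.9 did the rest.

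All 37 members and 14 pairs are reported. Nuclear matches were named by rule from a mean count of 1000, and Gm28438 and Gm28439 after their values were seen. Of lists the 4 highest members and the lowest were named, and marker lists are given as sums, with the members called between the libraries. The members and lists were chosen with earlier results of these data known. The tRNAs shown were chosen by position and length, since all were tied at 0.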

Additional observations from a re-analysis of the deposited data

How the results depend on the processing

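The share of counts on mitochondrial genes, 8.09% in all, 1.73% for mRNAs and 6.36% for rRNAs, was 7.64%, 1.57% and 6.07% by FASTQ-based counts, and 9.13%, 1.95% and 7.18% of protein-coding and mitochondrial genes alone. With the matching nuclear rows added it was 8.75% in all and 2.39% for mRNAs. Leaving out a replicate gave 7.99 to 8.20%, 1.68 to 1.78% and 6.30 to 6.42%, and the tRNA share was 0 under each alternative. The count of mitochondrial genes called between the libraries stayed 0 under 3 other scalings, 2 other count filters, FASTQ-based counts, posterior mean counts and with nuclear rows added. It was 11 by the adjusted p alone, an alternative added after seeing the data, as were those with posterior means and centring. The count of genes 2-fold apart between the routes, 5, was 3 with the nuclear rows added (also added after seeing the data), 4 when centred on the median of all genes, by library-scaled counts or by posterior mean TPM, and 5 without either replicate. The count of neighbouring pairs 2-fold apart, 6, was 11 by FASTQ-based TPM, 5 with nuclear rows added and 6 without either replicate. Pairs that turned round were mt-Co2 over mt-Co1 (0.30 with nuclear rows added), mt-Atp8 over mt-Co2 (-0.77 with nuclear rows added and -13.4 by FASTQ-based TPM), mt-Atp6 over mt-Atp8 (0.98, 16.2 and, by counts per kilobase of annotated length, 0.18) and mt-Nd4l over mt-Nd3 (-3.20 by FASTQ-based TPM). The FASTQ-based values with mt-Atp8 at 0 are set by the pseudocount. No paired analysis was possible because there is 1 group. The tRNAs have an effective length of 0 in the gene table and 0 counts by both routes, and the part of depth in this was not tested. For the other members counting error in the gene table is small.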
